A study of Mus musculus with 8 samples.

Results

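The respiratory chain and the ATP synthase were followed through mouse islet beta cells, alpha cells and beta cells that had transdifferentiated from alpha cells. Members were the rows whose symbol starts with Nduf, Cox followed by a digit from 4 to 8, Uqcr, Sdh followed by a letter from a to d, Atp5, mt-Nd, mt-Co, mt-Cyt or mt-Atp. Of 46959 rows in the series, 113 have such a symbol, and 99 of them reached at least 1 RPKM (a read count scaled for transcript length and library size) in at least 2 of the 8 libraries. These 99 are 92 nuclear genes and 7 mitochondrially encoded genes, out of 13172 genes that passed the same filter. The rule used symbols and a minimum level, and no comparison between groups. It was set, however, with earlier results of these data known, and Cox6a2, Cox5a and Ndufb8 were named with it as markers. The prefixes also take in the assembly factors named Ndufaf and Sdhaf, which build complexes I and II without remaining in them, and Atp5sl, which is not a subunit of the ATP synthase despite its symbol.

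The study sorted cells by fluorescence from pooled islets of adult triple transgenic mice. These carried Ins1-H2b-mCherry, a nuclear red reporter under the insulin 1 promoter, together with Gcg-cre and a floxed YFP allele, so that cells that had once used the glucagon promoter kept a yellow label. Beta cells were mCherry-positive (3 libraries, 2 from female and 1 from male pools), alpha cells were YFP-positive (3 libraries, 1 female and 2 male), and the transdifferentiated cells carried both labels (2 libraries, 1 of each sex). Each pool held islets of 10 to 12 animals, and the islets stood overnight in medium with 5.5 mM glucose before sorting. The design text names bitransgenic females as well, without saying which libraries came from them, and says that beta and alpha libraries had been deposited earlier. A letter b, which is not explained, stands in the titles of beta replicates 2 and 3 and alpha replicates 2 and 3. It is in neither transdifferentiated title. Titles of beta replicates 1 and 2 share a number, as do those of alpha replicates 1 and 2. Nothing else says whether such a pair came from separate pools, so the p-values measure the spread between libraries, part of which may be technical.

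The chain passes electrons from NADH through complex I, or from succinate through complex II, to ubiquinone, then through complex III and cytochrome c to complex IV, which reduces oxygen. Complexes I, III and IV pump protons, and the ATP synthase uses the gradient to make ATP. In beta cells this step couples glucose metabolism to insulin release, because the rise of ATP closes potassium channels of the cell membrane. Most subunits are encoded in the nucleus, while the core of complexes I, III and IV and a part of the ATP synthase is encoded in mitochondrial DNA. Several subunits exist as isoforms, such as Cox6a1 of most tissues and Cox6a2 of heart and skeletal muscle.

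Reads recovered from the steps of the RPKM values numbered 12911871 to 21395280 in the beta and alpha libraries, against 1244227 and 2167332 in the transdifferentiated libraries. The nuclear members held 81395 to 155795 of those reads in a beta or alpha library and 8564 and 15611 in the transdifferentiated ones. Counting error is therefore largest in the transdifferentiated cells, and a single read of a short transcript there stands for more than 1 RPKM. Ins2 was 115974 to 157458 RPKM in beta cells, 87124 and 94199 in transdifferentiated cells and 820 to 1088 in alpha cells. Gcg ran the other way, at 478 to 1773, then 19374 and 19104, then 170137 to 196491 RPKM. The labels therefore matched their defining hormones, and the transdifferentiated libraries held both. In such bulk samples, fewer cells of a type and less RNA per cell cannot be told apart.

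Cox6a2 set beta and alpha cells apart more than any other member. It encodes the muscle-type isoform of subunit 6a, a small regulatory part of complex IV, and lies at chr7:128205435-128206387 on the minus strand (GRCm38, 3 exons). Its level was 66.0, 34.9 and 41.7 RPKM in the beta libraries, 13.0 and 15.6 in the transdifferentiated libraries, and 1.48, 0.986 and 1.15 in the alpha libraries. Every beta library was above every transdifferentiated library, and every transdifferentiated library was above every alpha library. In alpha against beta cells it was 26.6-fold lower (log2 fold change −4.73 ± 0.25 SE, limma adjusted p = 1.66e-05), the 23rd lowest log2 fold change of the 13172 genes. In transdifferentiated against alpha cells it was 8.59-fold higher (log2 3.10 ± 0.27 SE, limma adjusted p = 0.000321). Against beta cells, the transdifferentiated cells were 3.10-fold lower (log2 −1.63 ± 0.27 SE, limma adjusted p = 0.0154).

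That last difference rests on 11 and 23 reads of Cox6a2 in the transdifferentiated libraries, against 407 to 838 in beta cells. limma voom, which weights the recovered reads by their depth, gave −1.60 ± 0.62 SE and an adjusted p of 0.163. With only beta and transdifferentiated libraries in the model, no gene of the 13172 passed. Without beta replicate 3 or transdifferentiated replicate 1 the gene did not pass either. The other 2 comparisons of Cox6a2 passed under all 21 alternatives tried. Markers of skeletal muscle were near 0 throughout: the 8 markers summed to 3.16 to 4.66 RPKM in beta cells, 3.23 and 5.79 in transdifferentiated cells and 2.06 to 2.31 in alpha cells, with Tnnt3 and Tnni2 at 0 in every library. Immune markers moved with the beta cells, summing over 7 genes to 66.6 to 78.9 RPKM there, 22.0 and 5.37 in transdifferentiated cells and 2.62 to 3.48 in alpha cells. Markers of PP cells (2 genes) summed to 589 to 1274 RPKM in beta cells, 8249 and 11438 in transdifferentiated cells and 7960 to 13022 in alpha cells. Those of delta cells (4 genes) summed to 312 to 891, then 2967 and 3096, then 1371 to 3197, and those of duct (3 genes) to 184 to 314, then 183 and 228, then 668 to 1690. Nearly all of the duct sum was Spp1, at 667 to 1686 RPKM in alpha cells. Krt19 was 2.17, 10.5 and 5.49 RPKM in beta cells, 2.17 and 3.48 in transdifferentiated cells and 0.167, 3.73 and 1.99 in alpha cells. Sox9 was under 1 RPKM in every library. Acinar markers (6 genes) ranged from 39.6 to 3389 RPKM over the libraries, with all groups overlapping. The part of these transcripts in the results was not tested.

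The widely expressed partner Cox6a1 did not pass in any comparison on the log2 RPKM scale. It stood at 192, 173 and 190 RPKM in beta cells, 152 and 185 in transdifferentiated cells, and 160, 152 and 133 in alpha cells. Its alpha libraries lay below its beta libraries, at a log2 fold change of −0.33 ± 0.12 SE that missed the threshold (limma adjusted p = 0.0559). limma voom did call it lower in alpha cells (log2 −0.35 ± 0.11 SE, adjusted p = 0.0260). Cox6a2 thus made up 20.1% ± 4.76 (SD, n = 3) of the summed RPKM of both isoforms in beta cells. Its share was 7.87% and 7.79% in transdifferentiated cells and 0.807% ± 0.145 (SD, n = 3) in alpha cells. The share is unaffected by any single factor applied to a whole library, and its 3 groups did not overlap. Quantile normalization can change it, and the share was not computed there.

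**Figure D1:**
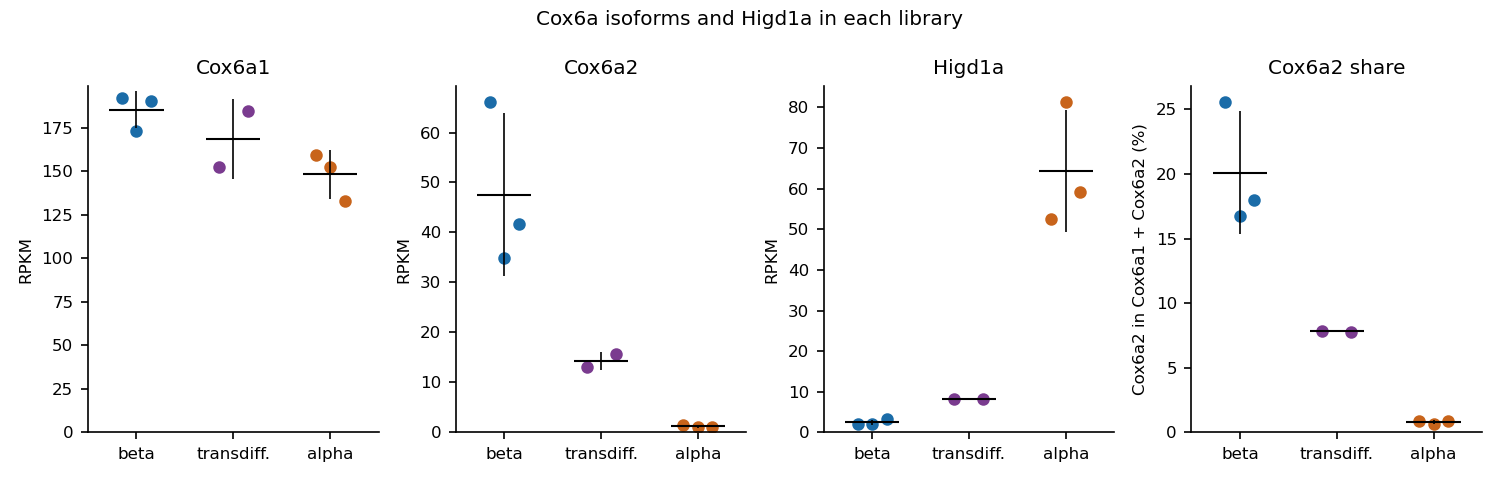
Each point is 1 library; horizontal lines are group means and vertical lines 1 SD, in beta (3), transdifferentiated (2) and alpha (3) libraries. The first 3 panels give RPKM of Cox6a1, Cox6a2 and Higd1a, and the last gives Cox6a2 as a percent of Cox6a1 plus Cox6a2, which falls from 20.1% in beta cells to 0.807% in alpha cells, while Higd1a runs the other way.

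The sequences before the start of these genes were compared, because factors such as NRF1 and the ETS family are known to act at promoters of respiratory chain genes. RefSeq (GRCm38.p6) gave the 250 bases upstream of the start for 77 of the 92 nuclear members. The region of Cox6a1, chr5:115348959-115349208 on the minus strand, and that of Cox5a, chr9:57520982-57521231 on the plus strand, are shown because the one, the partner isoform, held both words named next and the other, a leading member, held neither. Capitals mark matches to the NRF1 word GCGCATGCG, found on both strands with overlap, and to the ETS word CCGGAAG, here on the opposite strand.
Cox6a1: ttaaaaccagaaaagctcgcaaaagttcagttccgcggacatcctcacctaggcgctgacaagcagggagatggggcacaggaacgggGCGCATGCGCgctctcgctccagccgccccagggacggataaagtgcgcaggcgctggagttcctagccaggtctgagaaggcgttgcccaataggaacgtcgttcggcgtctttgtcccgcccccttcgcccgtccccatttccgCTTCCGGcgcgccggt
Cox5a: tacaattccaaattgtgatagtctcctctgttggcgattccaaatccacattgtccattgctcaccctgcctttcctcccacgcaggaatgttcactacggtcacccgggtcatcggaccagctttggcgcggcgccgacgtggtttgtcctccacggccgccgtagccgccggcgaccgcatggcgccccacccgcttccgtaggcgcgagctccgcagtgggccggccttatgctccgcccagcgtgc

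The NRF1 word was in 7 of the 77 members (9.09%), against 3.56% of 9663 tested genes and 1.64% of 27025 genes with an entry. The ETS word was in 15 members (19.5%), against 15.9% of tested genes and 7.83% of all entries. The words AAGATGGCG (YY1), TCAAGGTCA (ERR) and CACGTG (E-box), searched on both strands, were in 2, 1 and 7 members. These are 2.60%, 1.30% and 9.09% of the members, against 1.48%, 0.331% and 10.2% of tested genes. Ndufc2, Cox7a2l and Ndufb8, which are described below, held none of the 5 words in this window, as did Cox5a. Such a match is a string of letters, not a measured binding site.

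**Figure D2:**
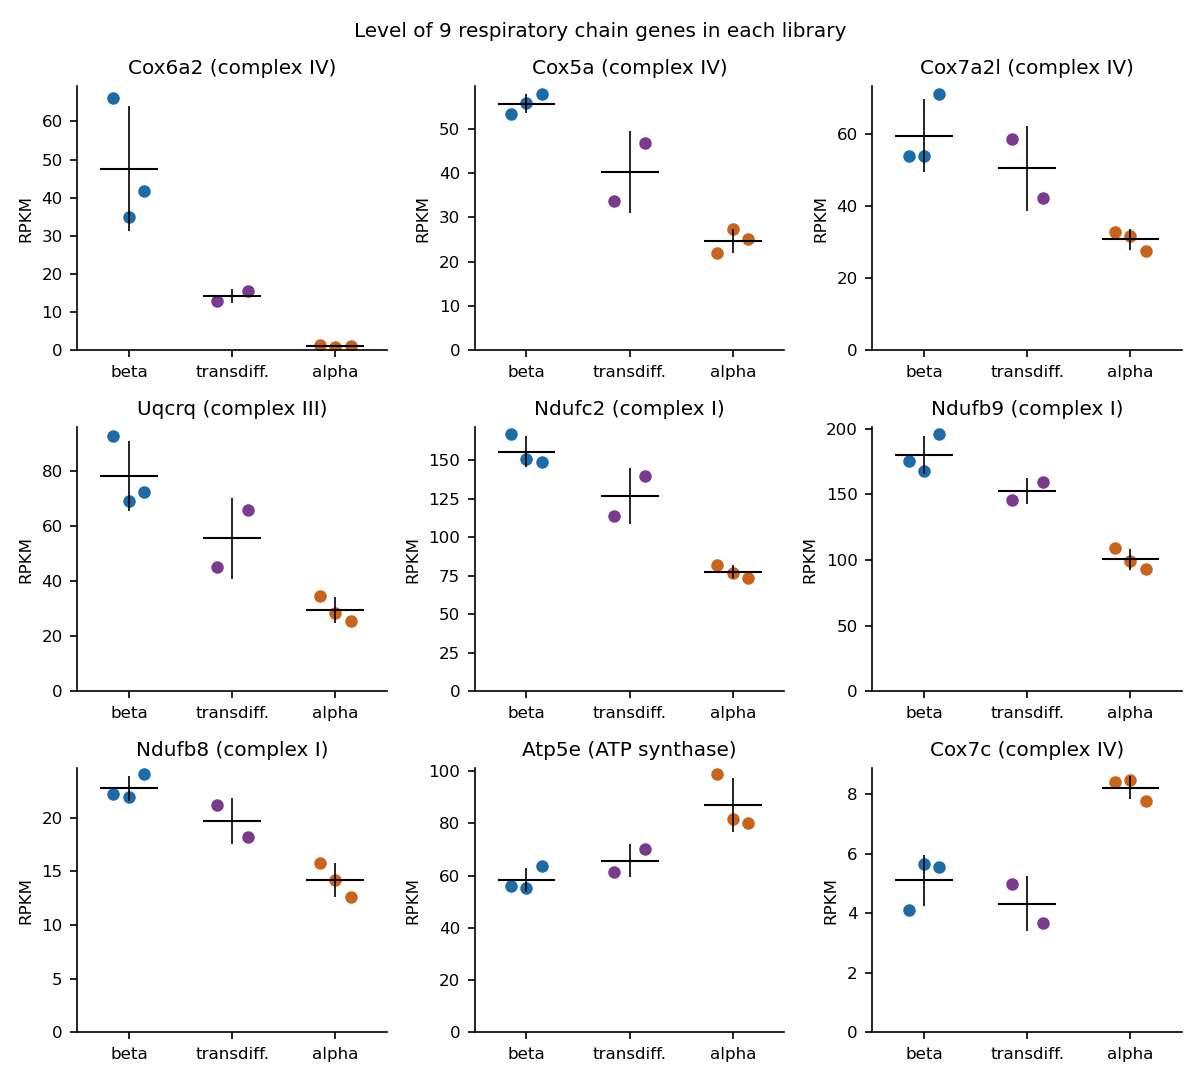
Each panel gives the RPKM of 1 nuclear member in the beta (3), transdifferentiated (2) and alpha (3) libraries, with the axis starting at 0; points are libraries, horizontal lines means and vertical lines 1 SD. In the first 7 panels every alpha library lies below every beta library, and in the panels of Atp5e and Cox7c every alpha library lies above.

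In complex IV, Cox5a followed Cox6a2. It encodes a matrix-side subunit of the enzyme. Its level was 53.4, 55.8 and 57.8 RPKM in beta cells, 33.8 and 46.8 in transdifferentiated cells and 21.9, 27.3 and 25.1 in alpha cells. No group overlapped another. Alpha cells were 2.18-fold below beta cells (log2 −1.12 ± 0.14 SE, limma adjusted p = 0.000773). The call held under all 21 alternatives, at log2 −1.20 to −0.78. Transdifferentiated cells were above alpha cells (log2 0.66 ± 0.15 SE, limma adjusted p = 0.0158), a call that 6 of the 21 alternatives lost, among them quantile normalization, median-ratio scaling and the omission of transdifferentiated replicate 2 or alpha replicate 3. Against beta cells the log2 difference was −0.46 (95% interval −0.81 to −0.11) and missed the adjusted threshold (limma adjusted p = 0.0849).

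Cox7a2l encodes a factor that joins complexes III and IV into supercomplexes. It stood at 53.9, 53.9 and 71.3 RPKM in beta cells, 58.8 and 42.2 in transdifferentiated cells and 33.0, 31.8 and 27.7 in alpha cells. Alpha libraries were the lowest, while the beta and transdifferentiated libraries overlapped. The log2 fold change was −1.05 ± 0.08 SE in alpha against beta cells (limma adjusted p = 9.83e-05) and 0.75 ± 0.09 SE in transdifferentiated against alpha cells (limma adjusted p = 0.00119), and both calls held under all 21 alternatives. Of its 50-base words, 13.8% also occur in transcripts of other genes, so a part of its reads could be assigned elsewhere.

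Uqcrq is a small subunit of complex III that lies at the membrane beside cytochrome b. Its level was 92.7, 69.3 and 72.4 RPKM in beta cells, 45.2 and 66.0 in transdifferentiated cells and 34.7, 28.5 and 25.5 in alpha cells. The groups did not overlap. It was 2.56-fold lower in alpha than in beta cells (log2 −1.36 ± 0.20 SE, limma adjusted p = 0.00158) and higher in transdifferentiated than in alpha cells (log2 0.87 ± 0.21 SE, limma adjusted p = 0.0204). The second call was lost under 7 of the 21 alternatives, 3 of which left out transdifferentiated replicate 2, alpha replicate 2 or alpha replicate 3. Its core proteins Uqcrc1 (log2 −0.53) and Uqcrc2 (log2 −0.41) passed in the same direction, that of Uqcrc1 being lost with quantile normalization and that of Uqcrc2 under 4 of 21 alternatives, among them the omission of beta replicate 3 or alpha replicate 3.

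Among accessory subunits of complex I, which surround its catalytic core, Ndufc2 and Ndufb9 were the furthest apart. Ndufc2 stood at 167, 151 and 149 RPKM in beta cells, 114 and 140 in transdifferentiated cells and 82.1, 76.7 and 73.8 in alpha cells. Ndufb9 stood at 176, 168 and 196 RPKM in beta cells, 146 and 159 in transdifferentiated cells and 109, 99.0 and 93.3 in alpha cells. For both, the 3 groups did not overlap, with alpha cells lowest. Log2 fold changes in alpha against beta cells were −0.97 ± 0.10 SE for Ndufc2 (limma adjusted p = 0.000394) and −0.87 ± 0.10 SE for Ndufb9 (limma adjusted p = 0.000504). Both were higher in transdifferentiated than in alpha cells, by log2 0.69 ± 0.11 SE and 0.62 ± 0.11 SE (limma adjusted p = 0.00457 and 0.00551). The latter call of Ndufb9 was lost with median-ratio scaling. Ndufb9 shares 15.6% of its 50-base words with other genes.

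Ndufb8, an accessory subunit of the membrane arm that is much used as a marker of assembled complex I, moved less. Its level was 22.2, 22.0 and 24.1 RPKM in beta cells, 21.2 and 18.2 in transdifferentiated cells and 15.8, 14.2 and 12.7 in alpha cells. Alpha libraries were the lowest and beta libraries the highest, without overlap. The log2 fold change was −0.73 ± 0.08 SE in alpha against beta cells (limma adjusted p = 0.000516) and 0.49 ± 0.09 SE in transdifferentiated against alpha cells (limma adjusted p = 0.00685). The second call was lost under 3 of 21 alternatives, all of them scalings. Ndufaf7, a methyltransferase needed for complex I assembly, was lower in alpha than in beta cells (log2 −0.64) and higher in transdifferentiated than in alpha cells (log2 0.73), though its transdifferentiated libraries of 16.1 and 10.6 RPKM lay on either side of the beta libraries of 11.8 to 12.5. The first call was lost under 4 of 21 alternatives, among them the omission of alpha replicate 3, and the second under 5 of 21, among them limma voom and the omission of transdifferentiated replicate 1.

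Few members were higher in alpha cells. Atp5e, the epsilon subunit of the stalk of the ATP synthase, was 98.9, 81.5 and 80.2 RPKM in alpha cells, 61.3 and 70.1 in transdifferentiated cells and 56.1, 55.1 and 63.7 in beta cells. Alpha libraries were above all others (alpha against beta, log2 0.54 ± 0.12 SE, limma adjusted p = 0.00911). Cox7c, a small membrane subunit of complex IV, was 8.42, 8.50 and 7.78 RPKM in alpha cells, 4.97 and 3.67 in transdifferentiated cells and 4.12, 5.66 and 5.55 in beta cells. It was higher in alpha than in beta cells (log2 0.58 ± 0.14 SE, limma adjusted p = 0.0143) and lower in transdifferentiated than in alpha cells (log2 −0.83 ± 0.15 SE, limma adjusted p = 0.00676). Of its 50-base words 22.1% occur in other genes, and the transdifferentiated values rest on 7 and 9 reads, so the gene is uncertain. Without beta replicate 3 or alpha replicate 3, or in limma voom for the transdifferentiated cells, its calls were lost. Atp5sl, the third, was higher by log2 0.32 ± 0.11 SE and was no longer called under 8 of 20 alternatives, among them the omission of any single beta or alpha library.

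**Figure D3:**
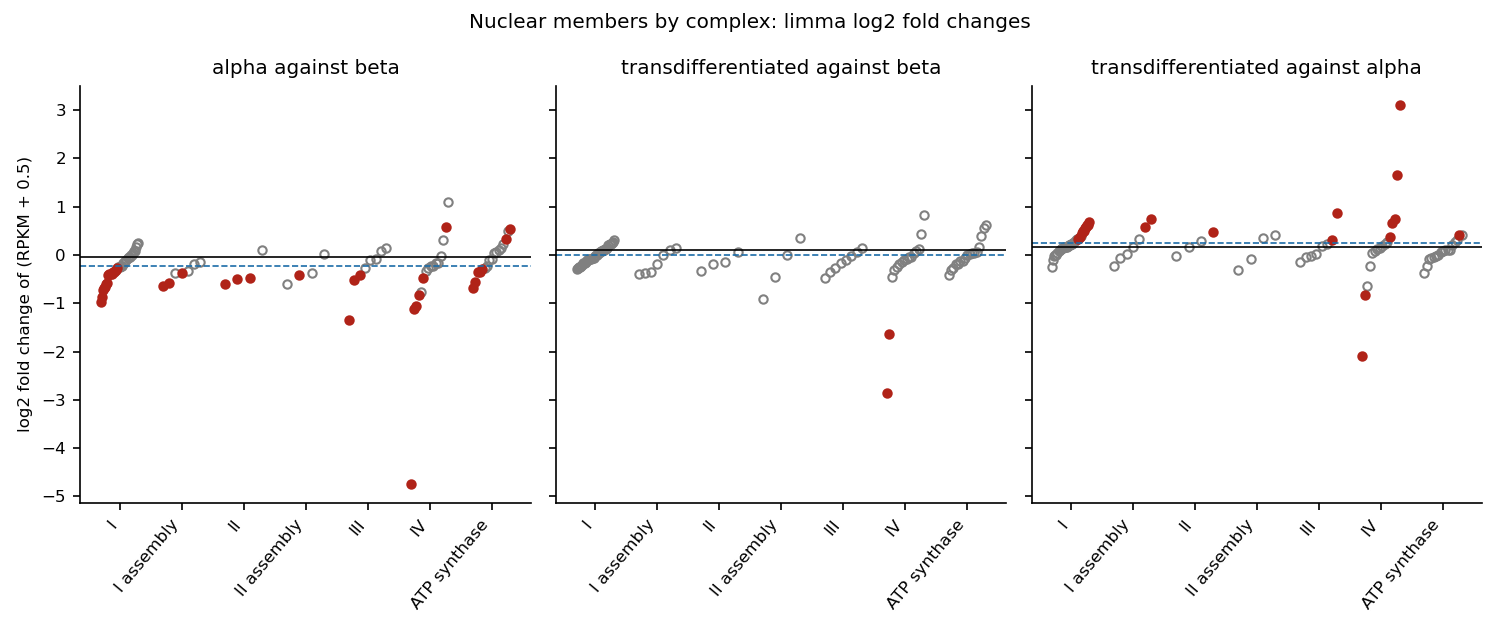
Each point is 1 of the 92 nuclear members, grouped by complex, with its limma log2 fold change of RPKM plus 0.5 on the vertical axis; filled points have an adjusted p under 0.05. The solid line is the median of the 13172 genes tested and the dashed line that of the 4854 genes averaging 10 RPKM or more. Cox6a2 is the lowest point on the left and the highest on the right, at log2 −4.73 and 3.10.

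Across all nuclear members, 34 of 92 (37.0%) had a lower level in alpha than in beta cells, 3 (3.26%) were higher and 55 did not pass, by limma at an adjusted p under 0.05. Of all 13172 genes, 26.7% were lower and 16.9% higher. The members are abundant transcripts, however, and of the 4854 genes that averaged 10 RPKM or more, 43.3% were lower and 13.1% higher. In that fit 34 of 75 members were lower (45.3%) and 1 was higher, with a median log2 fold change of −0.26 beside −0.24 for the 4854 genes. The members' share of lower calls was thus near that of genes of like abundance. limma voom called 40 nuclear members lower and 4 higher, against 30.2% and 22.4% of all genes.

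By complex, the lower calls in alpha against beta cells were 14 of 36 for complex I, 3 of 7 for its assembly factors, 3 of 4 for complex II, 1 of 4 for its assembly factors, 3 of 8 for complex III, 5 of 16 for complex IV and 5 of 17 for the ATP synthase rows. Medians ran from −0.09 for the ATP synthase to −0.50 for complex II. Beside these counts, 26.7% of all genes were lower, and 43.3% of those that averaged 10 RPKM or more. In the fit of the latter, lower calls were 15 of 33 for complex I (45.5%) and 3 of 4 for complex II (75%). They were 3 of 8 for complex III (37.5%), 6 of 12 for complex IV (50%) and 4 of 13 for the ATP synthase rows (30.8%). Assembly factors of complexes I and II had 2 of 3 and 1 of 2. The catalytic subunits of complex II, Sdha (log2 −0.61) and Sdhb (log2 −0.48), and the membrane anchor Sdhc (log2 −0.51) were lower in alpha cells. The other anchor, Sdhd, stood at 91.0, 93.4 and 104 RPKM in beta cells and 107, 108 and 105 in alpha cells (log2 0.09 ± 0.09 SE, limma adjusted p = 0.410). Of the catalytic head of the ATP synthase, Atp5a1 (log2 −0.57) and Atp5b (log2 −0.36) were lower in alpha cells, and Atp5c1 (log2 −0.09) did not pass. Of these calls, that of Sdha was lost under 1 of 21 alternatives, those of Sdhb and Sdhc under 3 each (for Sdhc, without beta replicate 3 or alpha replicate 3 and with quantile normalization; for Sdhb, alpha replicate 3 among them) and that of Atp5b under 10, single omissions of beta replicates 1 and 3 and alpha replicates 2 and 3 among the last.

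The size of this general difference depended on how libraries were scaled. Quantile normalization gave 12 members higher and 16 lower in alpha against beta cells, with a member median of 0.03, where 20.8% of all genes were called in either direction. Median-ratio scaling gave 5 and 24, with a median of −0.17, against 21.9% and 21.8% of all genes. Leaving out alpha replicate 3 left 15 lower, against 16.1% of all genes, and leaving out beta replicate 3 left 18, against 17.0%. Cox6a2, Uqcrq, Cox5a, Cox7a2l, Ndufc2, Ndufb9, Ndufb8 and Atp5a1 were called lower, and Atp5e higher, under all 21 alternatives, quantile normalization included.

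In transdifferentiated against beta cells 2 of the 92 nuclear members were called, both lower (2.17%), against 2.9% of all genes lower and 9.1% higher. They were Cox6a2 and Cox7a1, both of complex IV. Cox7a1, the muscle-type isoform of subunit 7a, was 2.94, 2.05 and 4.41 RPKM in beta cells and 1.28, 2.46 and 1.56 in alpha cells, on 6 to 23 reads a library, and had no read in either transdifferentiated library. At those depths 3 reads correspond to 6.62 and 3.8 RPKM, above all 3 beta values in the one library and above 2 of them in the other. A fall of Cox7a1 was therefore not detectable at this depth, whatever its call against beta cells (limma adjusted p = 0.0044) and alpha cells (limma adjusted p = 0.00299), and limma voom made neither (adjusted p = 0.153 and 0.397). Of the 92 members, 19 had an unadjusted p under 0.05, the 2 called included (20.7%, against 31.4% of all genes). For 84 of the 90 that did not pass, the 95% interval of the difference lay within 2-fold in either direction. Intervals had a median half-width of log2 0.28. They come from the fit without weights for depth, and may be too narrow for members with few reads. For Ndufaf6 and Ndufab1, counted within 2-fold here, limma voom gave log2 −0.33 ± 0.42 SE and 0.42 ± 0.31 SE. For Ndufaf1 and Sdhaf4, also counted within 2-fold, it gave log2 −0.35 ± 0.32 SE and 0.38 ± 0.30 SE. At such errors the intervals of these genes would reach beyond 2-fold, so the count of 84 may be too high. With limma voom no nuclear member was called, against 0.744% of all genes lower and 5.09% higher.

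In transdifferentiated against alpha cells 21 of 92 nuclear members (22.8%) were higher and 2 lower, against 23.2% and 6.67% of all genes. Restricted to genes averaging 10 RPKM or more, the shares of all genes were 36.2% and 5.09%, and those of the members 28% and 1.33%. The member median of log2 0.17 equalled that of all genes. Calls came to 10 of 36 for complex I, 2 of 7 for its assembly factors, 1 of 4 for complex II, 2 of 8 for complex III, 5 of 16 for complex IV and 1 of 17 for the ATP synthase rows. limma voom called 14 higher and 0 lower, against 16.7% and 2.72% of all genes. Median-ratio scaling moved the median of all genes from 0.17 to −0.04 and gave 7 members higher and 4 lower, against 12.5% and 11.8% of all genes. Quantile normalization gave 8 and 9, against 13.3% of all genes in either direction. Cox6a2, Cox7a2l and Ndufc2 were called higher under every alternative that tested them. Ndufa4l2 was too, but it passed the filter only through the transdifferentiated libraries, where it is high, so its call gives no support. The 2 comparisons with alpha cells share the alpha libraries, and the 2 with beta cells share the beta libraries.

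The remaining isoform pairs were dominated by their common member. Cox4i1, the usual subunit 4, was 75.9 to 105 RPKM over all libraries, whereas Cox4i2, a form linked to low oxygen, had 0 to 3 reads in a beta library, 1 and 0 in the transdifferentiated libraries and 6 to 16 in an alpha library. Ndufa4 was 53.7 to 72.9 RPKM. Its paralog Ndufa4l2 was 0.782, 0.779 and 0.944 RPKM in beta cells, 2.51 and 1.44 in transdifferentiated cells, on 3 reads in each, and 0.323, 0.155 and 0.369 in alpha cells. Its call in transdifferentiated against alpha cells (log2 1.66 ± 0.28 SE, limma adjusted p = 0.0055) thus rests on 6 reads. It reached 1 RPKM in the transdifferentiated libraries alone, and so entered the fit only through the group where it is high. Of the genes that encode the same c-ring protein of the ATP synthase, Atp5g3 made up 95.0% to 96.7% of the summed RPKM in every library. Atp5g2 shares 38.3% of its 50-base words with other genes, Atp5g1 11.1% and Atp5g3 0%. A part of the reads of Atp5g1 and Atp5g2 could thus be assigned elsewhere, and these shares are uncertain. Atp5g1 was 4.14, 3.79 and 2.44 RPKM in beta cells and 1.86, 1.68 and 1.70 in alpha cells (log2 −0.69 ± 0.18 SE, limma adjusted p = 0.019), a call lost under 6 of 20 alternatives, among them the omission of beta replicate 1, beta replicate 2 or alpha replicate 3. Cox6b1, Cox7a2, Cox7b and Cox8a were all above 50 RPKM in each library, and of these Cox8a was called, lower in alpha than in beta cells (log2 −0.48 ± 0.10 SE, limma adjusted p = 0.0089). That call was lost under 4 of 21 alternatives, among them the omission of beta replicate 3 or alpha replicate 3. The testis-type Cox6b2, Cox7b2 and Cox8c and the muscle-type Cox8b stayed below the filter.

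Of 13 mitochondrial members, 6 were listed at 0 in every library: mt-Co2, mt-Co3, mt-Atp6, mt-Atp8, mt-Nd3 and mt-Nd4l. The other 7 were at 778 to 4905 RPKM. A stretch of chromosome 1, from 24611535 to 24616197 in GRCm38, holds annotated unprocessed pseudogenes that copy a continuous part of mitochondrial DNA. Of the genes at 0, all but mt-Atp8 had a copy there without a single differing base: mt-Co2 over 681 bases, mt-Atp6 over 678, mt-Co3 over 783, mt-Nd3 over 342 and mt-Nd4l over 294. No copy of mt-Atp8 is annotated there. The stretch of mt-Co3 at chrM:8953-9042 and the same part of the pseudogene Gm28437 at chr1:24613536-24613625, minus strand, are shown because a read from either one fits both places.
mt-Co3: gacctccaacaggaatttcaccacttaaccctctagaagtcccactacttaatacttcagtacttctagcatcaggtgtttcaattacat
Gm28437: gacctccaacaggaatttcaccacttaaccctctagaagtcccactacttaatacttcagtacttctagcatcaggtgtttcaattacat

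Of the genes with values, mt-Nd4 shared 62.2% of its 50-base words and mt-Co1 51.1% with other genes, while mt-Nd1, mt-Nd6 and mt-Cytb shared none. The pseudogenes were themselves at 0 to 0.144 RPKM, except Gm28438, at 2.33 to 6.06. No source used here says how reads with several places were counted, and whether it produced the 6 zeros was not tested. The zeros say nothing about the levels of these genes, and values of mt-Nd4 and mt-Co1 are uncertain. The kit does not mark strand, so reads of mt-Nd6 and of the transcript opposite to it cannot be told apart.

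The summed level of the 7 genes did not separate the groups as a whole. It was 13598, 18557 and 13787 RPKM in beta cells, 15342 and 15905 in transdifferentiated cells and 13963, 12679 and 13807 in alpha cells. Beta replicate 2 was the highest, and had also the highest sum of acinar markers, and beta and alpha libraries overlapped. Both transdifferentiated libraries lay above every alpha library. Exact two-sided permutation tests over libraries gave p = 0.6 for alpha against beta, p = 1 for transdifferentiated against beta and p = 0.1 for transdifferentiated against alpha, where 0.1 is the smallest these designs allow. For the ratio of this sum to the summed nuclear members, 2.68 to 3.98 in beta, 3.38 in both transdifferentiated and 3.13 to 3.70 in alpha libraries, the groups overlapped in every comparison. limma called 1 of the 7, mt-Co1, lower in alpha than in beta cells (log2 −0.48 ± 0.15 SE, adjusted p = 0.038). Its call was lost under 11 of 21 alternatives, all 4 other scalings among them, and none of the 7 passed in either comparison of the transdifferentiated cells.

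The proportions among the 7 genes differed more than their sum. These shares were chosen after their values were seen. mt-Nd1, a core subunit of complex I that lies near the start of the heavy-strand transcript, was 15.5%, 16.3% and 15.3% of the 7-gene sum in beta cells, 16.1% and 17.3% in transdifferentiated cells and 20.6%, 19.1% and 19.4% in alpha cells. mt-Co1, the catalytic subunit of complex IV, was 21.8%, 20.6% and 23.4% in beta cells, 19.7% and 19.6% in transdifferentiated cells and 17.8%, 18.0% and 16.8% in alpha cells. mt-Cytb, the cytochrome b of complex III, was 27.1%, 26.4% and 27.3%, then 25.8% and 25.9%, then 24.7%, 23.0% and 23.1%. Beta and alpha libraries did not overlap in any of these 3 shares, with mt-Nd1 higher and mt-Co1 and mt-Cytb lower in alpha cells, and the transdifferentiated libraries of mt-Co1 and mt-Cytb lay between them. The ratio of mt-Cytb to mt-Nd1, neither of which shares words with other genes, was 1.75, 1.62 and 1.78 in beta cells, 1.60 and 1.5 in transdifferentiated cells and 1.20, 1.21 and 1.20 in alpha cells.

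Of the 7 shares, 6 separated beta from alpha libraries without overlap, mt-Nd5 being the exception. With 3 libraries a group, the exact two-sided permutation test cannot go below 0.1, which each of the 6 reached. Adjusted over the 21 tests of shares, the lowest value was 0.233, so none passed a threshold. The shares are of one sum, so a rise of one lowers others.

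**Figure D4:**
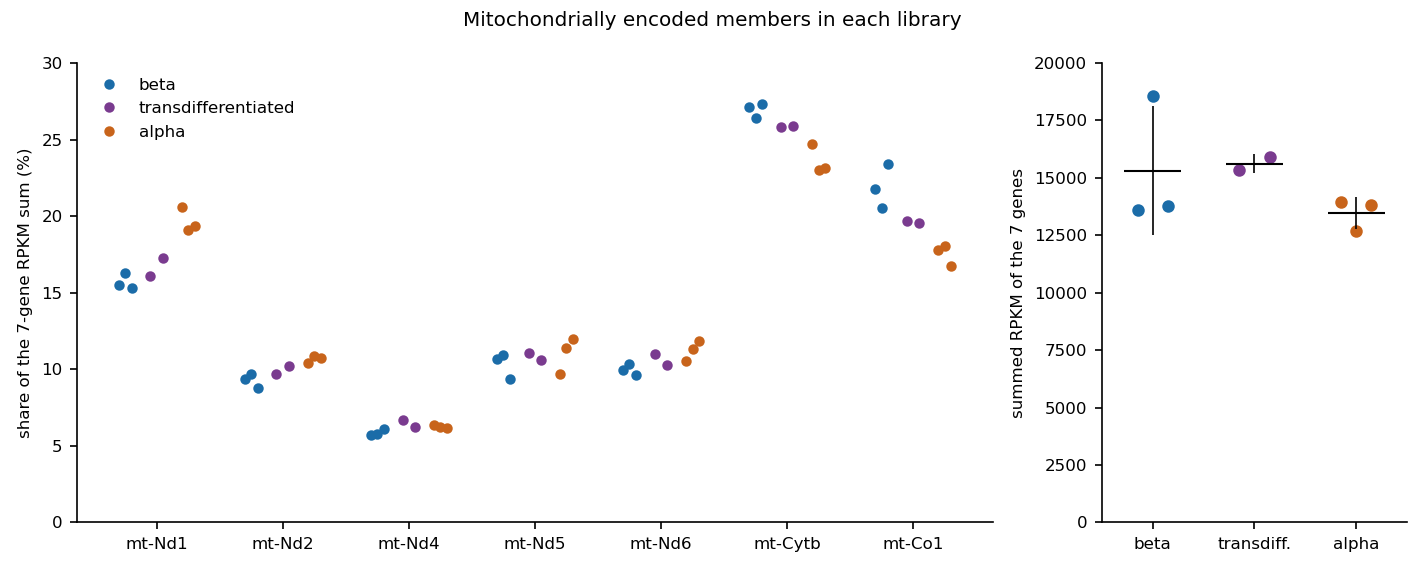
The left panel gives each of the 7 mitochondrially encoded genes as a percent of their summed RPKM, 1 point a library, coloured by group; the right panel gives the sum itself in RPKM, with means and 1 SD. mt-Nd1 is highest and mt-Co1 and mt-Cytb lowest in the alpha libraries, while the sums of beta and alpha libraries overlap.

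Other genes of the pathway were taken from lists. Of 34 tested electron carriers, assembly factors and supercomplex factors, 8 were lower (23.5%) and 2 higher (5.88%) in alpha against beta cells, beside 26.7% and 16.9% of all genes. In transdifferentiated against beta cells 1 was higher (2.94%, beside 9.1%), and against alpha cells 6 were higher (17.6%) and 2 lower (5.88%), beside 23.2% and 6.67%. None of these shares of called genes was above that of all genes. Higd1a, a small inner membrane protein that binds complex IV and is induced by low oxygen, was 2.03, 2.17 and 3.2 RPKM in beta cells, 8.15 and 8.13 in transdifferentiated cells and 52.5, 81.3 and 59.3 in alpha cells. The groups did not overlap, and the order was the reverse of that of Cox6a2. Its log2 fold change was 4.37 ± 0.19 SE in alpha against beta cells (limma adjusted p = 7.07e-06), 1.52 ± 0.20 SE in transdifferentiated against beta cells (limma adjusted p = 0.00878) and −2.84 ± 0.20 SE in transdifferentiated against alpha cells (limma adjusted p = 0.000157). The call against beta cells was lost in limma voom (log2 1.76 ± 0.45 SE, adjusted p = 0.0605) and with only those groups in the model, and the other 2 held under all 21 alternatives. Surf1, which inserts heme into complex IV, was lower in alpha than in beta cells (log2 −0.68) and higher in transdifferentiated than in alpha cells (log2 0.62). Somatic cytochrome c, Cycs, did not pass the filter and was listed at 0 to 1.42 RPKM. Its words shared with other genes were not counted, so the value may understate its level.

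Of 10 tested carriers and channels that move nucleotides and metabolites across the mitochondrial membranes, 4 were lower (40%) and 1 higher (10%) in alpha than in beta cells, beside 26.7% and 16.9% of all genes. Vdac1, the main channel of the outer membrane, was 127, 96.3 and 111 RPKM in beta cells, 80.4 and 91.9 in transdifferentiated cells and 42.5, 46.9 and 45.1 in alpha cells. Alpha libraries were the lowest, without overlap (alpha against beta, log2 −1.28 ± 0.12 SE, limma adjusted p = 0.000245). Vdac3 was lower as well (log2 −1.06), though not without beta replicate 3 or alpha replicate 3. Ucp2, an inner membrane carrier of the uncoupling protein family, was 26.5, 29.9 and 37.4 RPKM in beta cells, 55.6 and 44.5 in transdifferentiated cells and 55.6, 41.9 and 46.7 in alpha cells. It was higher than in beta cells both in alpha cells (log2 0.53 ± 0.14 SE, limma adjusted p = 0.0187) and in transdifferentiated cells (log2 0.63 ± 0.15 SE, limma adjusted p = 0.0382), and the latter 2 groups overlapped. The alpha call was lost without beta replicate 1 or alpha replicate 3, and the transdifferentiated call under 12 of 21 alternatives, among them the omission of any single beta or transdifferentiated library or of alpha replicate 3.

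Of 17 tested genes that control mitochondrial genes, 3 were lower (17.6%) and 1 higher (5.88%) in alpha than in beta cells, again beside 26.7% and 16.9% of all genes. Nrf1, a transcription factor of respiratory chain genes, was 6.11, 4.59 and 5.0 RPKM in beta cells, 3.05 and 4.08 in transdifferentiated cells and 2.38, 2.80 and 2.0 in alpha cells (alpha against beta, log2 −0.98 ± 0.18 SE, limma adjusted p = 0.00522). Polg, the mitochondrial DNA polymerase, was higher in alpha than in beta cells (log2 0.42), a call lost under 5 of 20 alternatives, among them the omission of any single beta library or of alpha replicate 3. Its call in transdifferentiated against beta cells (log2 0.53) was lost under 16 of 20, limma voom (adjusted p = 0.0554) and the omission of any single library among them. Tefm, an elongation factor of mitochondrial transcription, was lower in transdifferentiated cells than in beta cells (log2 −0.66) and alpha cells (log2 −0.56). limma voom made neither call (adjusted p = 0.228 and 0.276), and they were lost under 10 and 7 of 20 alternatives, both of them without transdifferentiated replicate 1 or alpha replicate 2. The call against beta cells was lost also without any single beta library or alpha replicate 3, and that against alpha cells without alpha replicate 1. Of 9 genes of coenzyme Q synthesis, 1 (11.1%), Coq5, was called lower in alpha than in beta cells (log2 −0.64).

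Proteins of the mitochondrial ribosome, which translates the mitochondrially encoded members, gave 27 of 76 lower (35.5%) and 2 higher (2.63%) in alpha against beta cells, with a median of −0.27. Among genes averaging 10 RPKM or more, 22 of 42 were lower (52.4%) and 0 higher, with a median of −0.35, beside 43.3% and 13.1% of all such genes and their median of −0.24. Those of the cytosolic ribosome gave 5 of 79 lower (6.33%) and 17 higher (21.5%), with a median of 0.07. Of the 53 that averaged 10 RPKM or more, 5 were lower and 5 higher (9.43% each), with a median of 0.01. In transdifferentiated against beta cells the counts were 2 lower and 1 higher for the mitochondrial ribosome and 1 lower and 3 higher for the cytosolic one, all smaller shares than the 2.9% and 9.1% of all genes.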

How the data were processed

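RNA of sorted cells was sequenced from TruSeq RNA v2 libraries, per the labels' protocols. The authors' deposited table holds RPKM per gene symbol, and the submitters' processing notes name STAR 2.5, featureCounts, edgeR 3.14.0 and the build GRCm38.p4, with no role given. The treatment of reads with several places is not stated there. The members and lists were chosen with earlier results of these data known.

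Of 46959 rows, 4 with repeated names were left out. Log2(RPKM + 0.5) of the 13172 genes with at least 1 RPKM in at least 2 libraries was fitted with limma 3.58.1 (trend) on all 8 libraries, with terms for group and sex, and Benjamini-Hochberg adjustment over all genes. A fold change on this scale understates that of low genes. Whole reads were recovered from the RPKM steps with GENCODE M21 exon lengths: 78.5% of 25349 matched symbols were whole within 0.01 read in all libraries, and lengths of others were solved from the steps. They served for depth, a floor of 3 reads (counting error only) and limma voom. Positions and 50-base words came from GENCODE M21. The fit was tested on simulated data with changes put into the transdifferentiated libraries. It recovered 71% of 2-fold changes against beta cells and 68% against alpha cells, and 100% of 4-fold changes in both. Simulated reads had the same excess spread for every gene and library. That spread was not fitted to the data, so the percentages need not hold for the real fit. Genes with few expected reads in the shallowest library were not changed there, so the test says nothing about members with few reads. Named genes were all mitochondrial members, the 6 largest called log2 fold changes in each direction and comparison, isoforms, Cox6a2, Cox5a and Ndufb8, the most abundant members, and the 4 largest called changes of the other lists. Alternatives changed the pseudocount (0.1, 1), the filter, the scaling, the model terms and the libraries. Fitted alternatives numbered 21, of which 1 was added after the data had been seen: the 2 beta and 2 alpha libraries whose titles share a number were averaged. No shared replicate numbers exist.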

Additional observations from a re-analysis of the deposited data

How the results depend on the processing

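Of the named members' calls in alpha against beta cells, those of Cox6a2, Uqcrq, Cox5a, Cox7a2l, Ndufc2, Ndufb9, Ndufb8, Atp5a1 and Atp5e passed under all 21 alternatives, and no called log2 fold change of a named member changed sign under any. The count of 37 nuclear members called in alpha against beta cells became 23 with TPM and ran from 16 to 49 when single libraries were left out. In transdifferentiated against beta cells 2 became 1 at a mean RPKM of at least 10, 9 with median-ratio scaling, 5 with quantile normalization, 6 with letter b as a term, 0 with only the groups compared, 0 with limma voom, and 1 to 7 when single libraries were left out. In transdifferentiated against alpha cells 23 became 11 with median-ratio scaling, 13 with TPM without mitochondrial and hormone genes, 14 with letter b as a term, 10 with only the groups compared, 14 with limma voom, and 12 to 24 without single libraries. The 1 mitochondrial call in alpha against beta cells became 0 with no filter, median-ratio scaling, quantile normalization, either TPM scaling or averaged libraries, and 0 to 1 without single libraries. Shares of all 13172 genes moved with the settings too. In alpha against beta cells, 16.0% were lower and 19.1% higher with TPM. Without single beta or alpha libraries, 16.1% to 23.0% were lower and 7.55% to 16.9% higher. In transdifferentiated against beta cells, 5.89% were lower and 6.57% higher with median-ratio scaling, and 0 passed with only the groups compared. Quantile normalization gave 3.89% lower and 4.79% higher there, and letter b as a term 2.94% and 12.5%. At a mean RPKM of at least 10 the shares were 3.36% and 6.63%, and with limma voom 0.744% and 5.09%. Without single beta or alpha libraries, 0.349% to 2.31% were lower and 1.43% to 7.11% higher. In transdifferentiated against alpha cells, 4.32% were lower and 12.9% higher with only the groups compared. TPM without mitochondrial and hormone genes gave 9.25% lower and 11.2% higher there, and letter b as a term 4.59% and 19.7%. Median-ratio scaling gave 11.8% and 12.5%, and limma voom 2.72% and 16.7%. Without single beta or alpha libraries, 3.99% to 6.18% were lower and 14.5% to 20.7% higher. The cause of these moves was not tested. The log2 ratio of summed mitochondrial levels in transdifferentiated against beta cells, 0.03, became −0.0498 without beta replicate 1 and −0.0413 without beta replicate 3, and reached 0.19 without beta replicate 2; where 1 transdifferentiated library is left, it is assumed to vary like the others. No paired analysis was possible because the labels give no replicate numbers shared between groups. Depth limits the transdifferentiated values of Cox7a1, Cox4i2, Ndufa4l2 and Cox7c, and 2 libraries limit all of them.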
